A study of Danio rerio with 4 samples.

Results

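The p53 pathway and apoptosis genes described here are mdm2, cdkn1a, ccng1, baxa, bbc3, gadd45aa, casp3a, casp8 and bcl2l1. Members were the probe sets whose single gene symbol in the platform annotation was one of these 9 names. Apart from 115 control probe sets, the array held 15502 probe sets, and the 10795 with 1 gene symbol named 8793 genes. Of the 15502 probe sets, 13628 passed a filter on dim signal, and 8 member probe sets of 7 genes were among them. No probe set had cdkn1a or casp3a as its single symbol, so these 2 genes were not analysed here. RNA was taken from entire zebrafish embryos 36 hours after fertilisation (hpf) and measured on an Affymetrix array, which reports 1 intensity per probe set. Control embryos, 2 arrays, were compared with embryos kept in E3 embryo medium with 1% glucose between 12 and 36 hpf, also 2 arrays. The labels name no strain, mutation or transgene for either group, and the medium of the controls is not described in them. Embryos per sample and shared clutches are not given in the sources used here. The p-values rest on the spread between these samples, pooled with that of other probe sets of similar brightness.

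The transcription factor p53 is stabilised when DNA or ribosome synthesis is disturbed and switches on genes that stop the cell cycle or start cell death. Its negative regulator Mdm2 is at the same time one of its targets, so mdm2 mRNA is widely used as a readout of p53 activity, in zebrafish embryos as in mammals. In apoptosis, trigger proteins such as Puma (gene bbc3) release the pore former Bax from restraint by survival proteins such as Bcl-xL (gene bcl2l1), and the opened mitochondria activate caspases. A separate route runs from death receptors at the cell surface through caspase 8.

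No member gene passed the test for a difference between glucose and control. By limma with an intensity trend, 0 of the 8 member probe sets had a Benjamini-Hochberg adjusted p under 0.10, against 2.00% of the 13628 probe sets tested (1.29% higher and 0.712% lower), and their adjusted p ran from 0.334 to 0.937. At an unadjusted p under 0.05 there was 1 member probe set, that of ccng1, against 11.5% of all. Without the trend 0 member probe sets passed adjusted and 0 passed unadjusted, against 0% and 8.45% of all. The 8 member probe sets were counted after the filter on dim signal, so any that failed it would not be seen here. The log2 difference (glucose minus control) was above 0 for 6 of the 8, against 50.2% of all probe sets. Over the brightest probe set of each of the 7 genes its median was 0.25, beside 0.00600 over all 8165 genes tested, and it was 0.0278 without control replicate 2. In whole embryos, fewer cells of a type and less RNA per cell cannot be told apart.

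**Figure D1:**
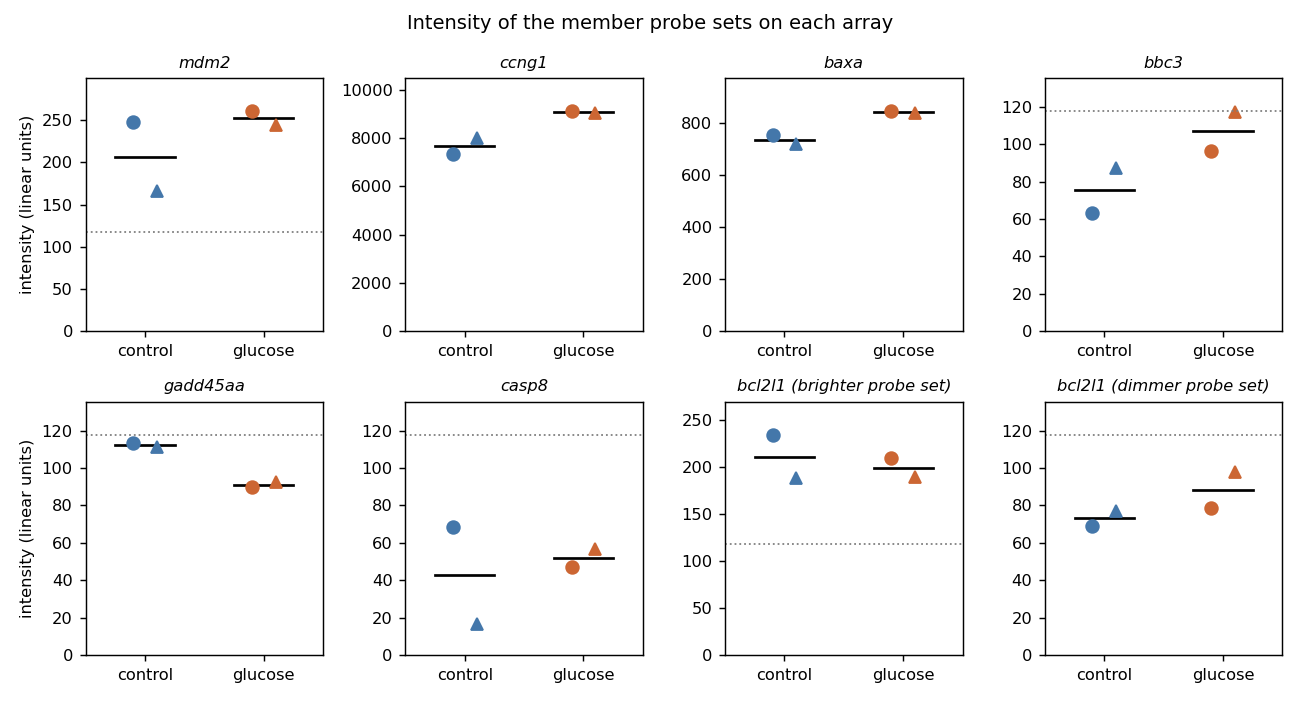
Intensity (linear units, axis from 0) of each member probe set on the 4 arrays, with circles for replicate 1, triangles for replicate 2, bars for the group mean, and a dotted line at the highest tag control (117.7) where the scale allows it. Control and glucose do not overlap for ccng1, baxa, bbc3, gadd45aa and the dimmer bcl2l1 probe set, and overlap for mdm2, casp8 and the brighter bcl2l1 probe set.

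The regulator mdm2, which encodes the ubiquitin ligase that targets p53 for destruction, read 247 and 166 in the controls and 260.3 and 244 in glucose. One control array was level with the glucose arrays and the other was lower, so the groups overlapped. The means were 206 ± 57.7 (SD, n = 2) and 252 ± 11.5, a log2 difference of 0.32 ± 0.22 (standard error) that did not pass (limma with trend, adjusted p = 0.630). The 95% interval ran from 0.91-fold to 1.71-fold. Leaving out control replicate 2 brought the difference to 0.03, leaving out control replicate 1 brought it to 0.61, and neither value passed.

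Cyclin G1, the product of ccng1, is a p53 target in mammals that feeds back on Mdm2. Its probe set read 7323 and 7989 in the controls and 9108 and 9024 in glucose. Both glucose arrays were above both controls, and the glucose pair lay close together. The means were 7656 ± 471 (SD, n = 2) and 9066 ± 59.5, a 1.19-fold difference with a 95% interval from 1.03 to 1.37 that did not pass (limma with trend, unadjusted p = 0.0236, adjusted p = 0.334). This was the only member whose interval left out 0 on the log2 scale. Without control replicate 2 the log2 difference went from 0.25 to 0.31 and ccng1 passed (adjusted p = 0.0372), and it passed under none of the other settings tried.

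The gene gadd45aa belongs to a family induced by growth arrest and DNA damage. It read 113 and 111 in the controls and 89.8 and 92.3 in glucose, and was the only member gene with both glucose arrays below both controls. The log2 difference was -0.30 with a 95% interval from -0.90 to 0.29 (limma with trend, adjusted p = 0.750). The 2 arrays of each group lay close together, with means of 112 ± 1.46 (SD, n = 2) and 91.1 ± 1.76. All 4 values were below 117.7, the highest reading of the array's 17 tag controls, made to match no fish transcript, and 4 of the 8 member probe sets were below it on all 4 arrays.

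Among the triggers and pore formers of the mitochondrial pathway, baxa read 755 and 721 in the controls and 846 and 841 in glucose. The glucose values were again above both controls by a small margin. The means of 738 ± 23.8 (SD, n = 2) and 843 ± 4.19 gave a 1.14-fold difference with a 95% interval from 0.93 to 1.40 (limma with trend, adjusted p = 0.660). Across all settings tried, the log2 difference of baxa stayed between 0.16 and 0.23. The p53 target bbc3 read 63.3 and 87.5 in the controls and 96.7 and 117.6 in glucose, with no overlap. Its log2 difference of 0.52 ± 0.32 (standard error) did not pass (limma with trend, adjusted p = 0.579). Leaving out control replicate 1 gave 0.29 for bbc3 and leaving out control replicate 2 gave 0.75. All 4 of its values were below the tag level of 117.7, the highest by a narrow margin. For bbc3 the 95% interval reached from 0.90-fold to 2.29-fold, and both no change and a rise of 2-fold lay inside it.

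The survival gene bcl2l1 had 2 probe sets, which differed in direction. The brighter one read 234 and 188 in the controls and 209 and 189 in glucose, overlapping, with a log2 difference of -0.08 and a 95% interval from -0.51 to 0.36 (limma with trend, adjusted p = 0.937). The dimmer one read 69.0 and 77.3 in the controls and 78.5 and 97.8 in glucose, without overlap but all below the tag level, with a log2 difference of 0.26 (adjusted p = 0.829). The brighter set turned to 0.08 without control replicate 1, and the mean of both was 0.09. No direction can therefore be given for bcl2l1.

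The initiator caspase of the death receptor route, casp8, read 68.7 and 16.3 in the controls and 47.3 and 56.5 in glucose, all below the tag level. The controls enclosed both glucose values. The log2 difference was 0.62 ± 0.68 (standard error) with a 95% interval from -0.81 to 2.06 (limma with trend, adjusted p = 0.792). Leaving out control replicate 2 turned it to -0.41 and leaving out control replicate 1 gave 1.66, so no direction can be given for casp8.

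**Figure D2:**
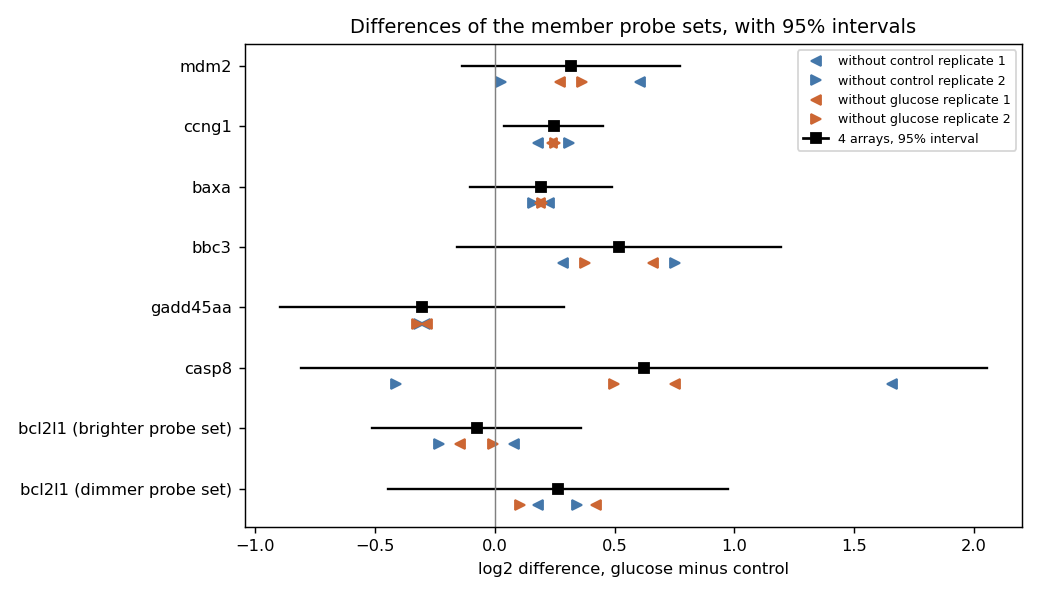
Log2 difference (glucose minus control) of each member probe set, with squares and lines for the 4-array value and its 95% interval and small triangles for the value without each array. Only the ccng1 interval leaves out 0, and the mdm2 and casp8 triangles spread widely with the control array left out (0.03 to 0.61 for mdm2).

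Control and glucose values did not overlap for 4 of the 8 member probe sets in the higher direction, against 20.7% of all probe sets tested, and for 1 in the lower direction, against 20.3%. Over all probe sets, the within-group SD fell with brightness, from 0.607 log2 units at a mean log2 of 5 to 6 to 0.103 at 12 and above. The intensity trend builds this into the intervals, which need not match the spread of a single probe set. For probe sets with a mean log2 intensity from 5 to 6, where casp8 lies, the 95% interval typically reached 2.23-fold to either side. From 6 to 7, where bbc3, gadd45aa and the dimmer bcl2l1 probe set lie, the within-group SD was 0.354 log2 units and the interval reached 1.61-fold. From 7 to 8, the range of mdm2 and the brighter bcl2l1 probe set, it reached 1.38-fold. At 12 and above, the range of ccng1, it reached 1.16-fold.

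**Figure D3:**
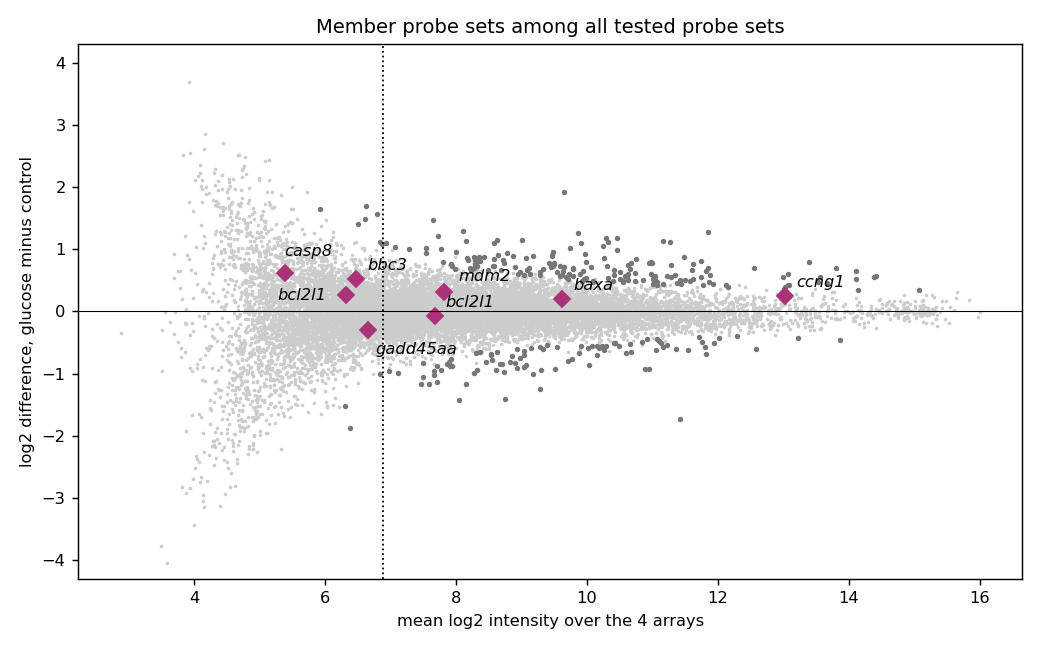
Mean log2 intensity (horizontal) against log2 difference, glucose minus control (vertical), for all 13628 tested probe sets in light grey, those with adjusted p under 0.10 in dark grey, and the members as labelled diamonds. The dotted line marks the tag level, and the members lie inside the cloud of probe sets that did not pass, ccng1 at its upper edge.

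Other genes of the pathway were taken from 5 lists of p53 regulators, p53 targets, gadd45 genes, BCL2 family genes, and caspases with their adaptors and inhibitors. In all, 78 listed genes were tested, each by its brightest probe set. Of these, 34 were higher and 44 lower in glucose, where 51.0% of all 8165 genes were higher. By limma with trend 2 rose and 0 fell, against 1.53% and 0.649% of all genes, and 12 had an unadjusted p under 0.05, against 12.0% of all. Without the trend none passed, with the smallest adjusted p of all probe sets at 0.301. The kinase genes atm and atr were not analysed here.

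Of 9 regulators and DNA damage kinases, 5 were higher, 4 were lower and 0 passed, with a median log2 difference of 0.03. The replication checkpoint kinase gene chek1 read 343 and 451 in the controls and 504 and 562 in glucose, with no overlap, and a log2 difference of 0.44 (limma with trend, adjusted p = 0.325). For chek1 the value was 0.64 without control replicate 2, where it passed (adjusted p = 0.0282), and 0.24 without control replicate 1 (adjusted p = 0.70). The p53 relative tp63, a transcription factor of the epidermis, differed by -0.35 (adjusted p = 0.380). The genes ppm1da and ppm1db encode phosphatases related to human Wip1, which switches off the p53 response. On their brightest probe sets they differed by 0.14 and -0.41 (adjusted p = 0.743 and 0.625). Leaving out 1 array gave 0.06 to 0.21 for ppm1da and -0.65 to -0.17 for ppm1db.

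Of 21 genes listed as p53 targets outside the members, 10 were higher and 11 lower, with a median of -0.08, and 1 rose. That gene was sesn3, a sestrin, one of a family of stress-induced restraints on growth signalling; in mammals SESN3 is known more as a target of FoxO factors than of p53. It read 822 and 720.5 in the controls and 1222 and 1105 in glucose. All glucose values were well above the controls, with means of 771 ± 71.5 and 1164 ± 82.8 (SD, n = 2). The 1.51-fold rise passed with the trend (limma, adjusted p = 0.0457) and not without it (adjusted p = 0.537). It was lost without glucose replicate 1 (adjusted p = 0.327) and without glucose replicate 2 (adjusted p = 0.121), while the log2 difference stayed between 0.50 and 0.69.

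The other genes of smallest p listed as p53 targets were lower and did not pass, and their control by p53 was not tested. The cyclin-dependent kinase inhibitor gene cdkn1ca differed by -0.30 (limma with trend, adjusted p = 0.276), from 3804 and 3811 in the controls to 3163 and 3037 in glucose. The antiproliferative gene btg2 differed by -0.31 and the autophagy and cell death gene tp53inp1 by -0.29 (adjusted p = 0.451 for both). Groups did not overlap for cdkn1ca, btg2 or tp53inp1. Of the 21 listed targets, 7 were lower and 4 higher without overlap, against 20.6% and 21.8% of all genes. Without control replicate 2 the tp53inp1 difference was -0.44 and crossed the threshold, and leaving out control replicate 1 gave -0.14. The btg2 difference was -0.18 without control replicate 2.

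The list of other gadd45 genes, which counts the binding protein gene gadd45gip1, split by direction and 0 of 5 passed. Its median log2 difference was -0.29. Without control replicate 1 the median was -0.03, which is the value of gadd45gip1 itself. The gene gadd45ga read 222 and 250.0 in the controls and 171 and 135 in glucose, a log2 difference of -0.63 (limma with trend, adjusted p = 0.229). The closest relative of the member gadd45aa, gadd45ab, lay the other way at 0.52, from 158 and 227 to 285 and 260.4 (adjusted p = 0.339). Without control replicate 2 the gadd45ab difference was 0.78 and crossed the threshold, and leaving out control replicate 1 gave 0.26. The brightest gadd45ba probe set differed by -0.29 (adjusted p = 0.528). The gene gadd45gip1, named for a protein that binds Gadd45 proteins, differed by 0.28 (adjusted p = 0.621). Without control replicate 2 gadd45gip1 passed (log2 difference 0.59, adjusted p = 0.0342), and without control replicate 1 its difference was -0.03.

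Of 13 genes on the BCL2 family list outside the members, 3 were higher, 10 were lower and 0 passed, with a median of -0.21. The groups did not overlap for 8 in the lower direction, against 20.6% of all genes, and for 1 in the higher direction, against 21.8%. The listed gene bag6, not a BCL2 family gene, is counted among those lower without overlap (log2 difference -0.13). The list median lay between -0.10 and -0.22 when each array was left out. The mitochondrial outer membrane protein gene bcl2l13, a receptor for mitochondrial clearance in mammals, read 815 and 1355 in the controls and 685 and 657 in glucose on its brightest probe set. The log2 difference was -0.65 (limma with trend, adjusted p = 0.120). It was -0.28 without control replicate 2 (adjusted p = 0.436) and -1.01 without control replicate 1, where it passed (adjusted p = 1.8e-07). With the replicate number as a block bcl2l13 passed as lower (limma with trend, adjusted p = 0.0491). Its other probe set differed by -0.37 (adjusted p = 0.497), also without overlap. The survival genes mcl1a and mcl1b lay in opposite directions, at -0.33 and 0.28 (adjusted p = 0.427 and 0.508). The cell death promoter bada differed by -0.40 (adjusted p = 0.625), with 2 arrays below the tag level.

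The list of caspases, adaptors and inhibitors also counts genes of other kinds, among them pdcd6ip, acin1a and tnfsf10. Of its 30 genes tested, 14 were higher and 16 lower, with a median of -0.01, and 1 rose. That gene was pdcd6ip, which encodes Alix, a protein of membrane remodelling and vesicle sorting. One of its 3 probe sets read 812 and 848 in the controls and 1144 and 1225 in glucose, a 1.43-fold rise (limma with trend, adjusted p = 0.0795; without trend, 0.537). Its other probe sets overlapped between groups and differed by -0.04 and 0.20, and the mean of all 3 did not pass (log2 difference 0.23, adjusted p = 0.724). The call was also lost without glucose replicate 1 (log2 difference 0.56, adjusted p = 0.243) and without glucose replicate 2 (0.46, adjusted p = 0.471), beside 0.51 with all 4 arrays.

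Of the 4 genes of smallest p in that list, those other than pdcd6ip lay higher and did not pass. The gene next by p, acin1b, lay lower (log2 difference -0.35, limma with trend, adjusted p = 0.440). The chromatin and splicing factor gene acin1a differed by 0.40 on its brightest probe set, and its other probe set by -0.04. The death ligand gene tnfsf10 differed by 0.66 on its brightest probe set, from 109 and 105 to 184 and 155 (limma with trend, adjusted p = 0.276). Both control values were below the tag level. The other tnfsf10 probe set was below the tag level on all 4 arrays, with overlapping groups and a difference of 0.67. The gene diabloa, whose product releases caspases from their inhibitors, differed by 0.51 (adjusted p = 0.380). Without control replicate 2 the difference was 0.55 for acin1a and 0.82 for diabloa. Each crossed the threshold in that fit, which rests on a lone control array. Leaving out control replicate 1 gave 0.26 for acin1a and 0.20 for diabloa.

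**Figure D4:**
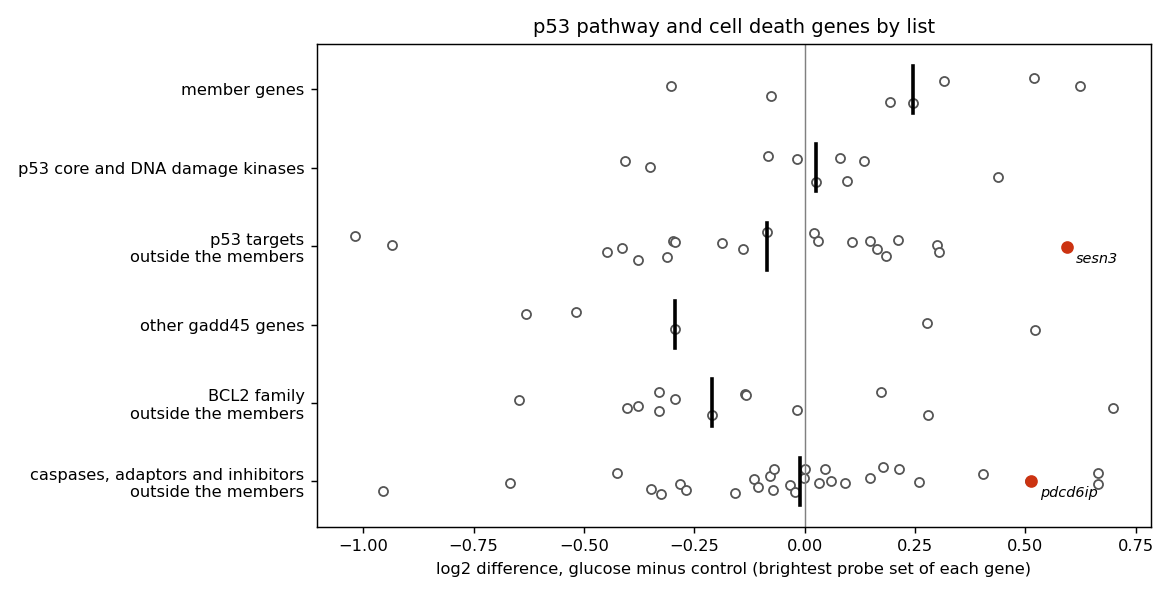
Log2 difference (glucose minus control) of the brightest probe set of each gene, by list, with vertical bars for list medians and filled points for genes with adjusted p under 0.10. Only sesn3 and pdcd6ip are filled. The medians run from -0.29 for the list of other gadd45 genes, which counts gadd45gip1, to 0.25 for the member genes. Leaving out 1 control array brought these to -0.03 (replicate 1) and 0.03 (replicate 2).

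The arrays had median intensities between 171 and 175. Of 24 tissue marker genes, 19 had a probe set with 1 gene symbol that passed the filter on dim signal. All 19 were above the tag level on every array, among them markers of muscle, heart, neurons, epidermis, blood and notochord. All 3 primitive red cell markers were called higher in glucose. Their summed intensity was 6731 to 7174 in the controls and 11323 to 11550 in glucose. Of 2 markers of liver, gut and yolk, apoa4b.1 was called higher. It read 2445 and 2318 in the controls and 5403 and 6117 in glucose. The other, rbp4, had a log2 difference of -0.03 (limma with trend, adjusted p = 0.955). No heart, neuron or notochord and cartilage marker was called. Summed heart markers read 1686 to 1909 in the controls and 2353 to 2373 in glucose. Those of neurons read 5543 to 6048 and 4890 to 5154. Those of notochord and cartilage read 8971 to 9079 and 10074 to 10894. The part of such shifts in tissue signal in the values of the p53 and apoptosis genes was not tested.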

How the data were processed

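The deposited table gives 1 linear intensity per probe set and array. GCRMA is named, without a version, per the submitters' processing notes. The deposited intensities share a 2% trimmed mean of 500.2 on all 4 arrays, so the method and any background step remain unsettled. Per the labels' protocols, Trizol was used for extraction and biotin as label. Groups come from the sample titles.

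Values were log2-transformed without rescaling, and 115 control probe sets were left out. Probe sets with a log2 of at least 5 on at least 2 arrays were tested with limma 3.58.1 in R 4.3.3 (lmFit, eBayes with an intensity trend, no covariates) at a Benjamini-Hochberg adjusted p under 0.10, with all 13628 tested probe sets in the adjustment. The number of arrays limits the precision. Code was tested on simulated arrays. Symbols were updated through the RefSeq table of assembly GRCz12tu, which matched 10711 of 10795 probe sets with 1 gene. Tables and plots used Python 3.11.15, pandas 2.3.3 and matplotlib 3.10.9. Near-identical genes can share a probe set.

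The members, lists, trend fit and settings were chosen with earlier results of these data known. The naming rule took every member, every called list gene, and the 4 list genes of smallest unadjusted p on their brightest probe set. The genes acin1b and plk3 are given outside this rule, as those next by p in their lists. Settings varied were the variance model, filter, normalization, pseudocount, threshold, arrays, replicate block and averaging of probe sets. Leaving arrays out for the list medians was chosen after seeing the data.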

Additional observations from a re-analysis of the deposited data

How the results depend on the processing

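For the member and list genes taken by the naming rule, 361 of 386 values under the other settings kept their direction and side of the threshold. The median over member genes was between 0.0278 and 0.25 without 1 array, the lowest without control replicate 2, and member calls were 0 or 1 higher. Over all probe sets, 176 higher and 97 lower calls became 0 and 0 with no intensity trend, 117 and 57 with no filter, 110 and 51 at adjusted p under 0.05, and ranged from 88 to 578 and from 59 to 356 without 1 array. Most calls appeared without control replicate 2 (578 higher, 356 lower) and control replicate 1 (331, 241), against 110 and 104 without glucose replicate 1 and 88 and 59 without glucose replicate 2. A fit without 1 array assumes that the lone sample varies like the other group. Without 1 array the log2 difference spanned 0 for casp8 (-0.41 to 1.66), the brighter bcl2l1 probe set (-0.23 to 0.0801, and 0.0930 as the mean of both probe sets) and gadd45gip1 (-0.0319 to 0.59). So did the list medians of p53 regulators (-0.0554 to 0.0304) and caspases (-0.0642 to 0.0532). The cause was not tested. The call of pdcd6ip was also lost with quantile normalization (log2 difference 0.50, adjusted p = 0.115). That of bcl2l13 was gained in 6 settings. Deviations of same-numbered arrays correlated with r = -0.02 across probe sets, which are not independent replicates. The replicate block gave a member median of 0.25 and 0 member calls, and bcl2l13 passed (adjusted p = 0.0491). At a mean log2 of 5 to 6, the typical interval reached 2.23-fold, and changes below it could be missed.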
